A study of Mus musculus with 12 samples.

Results

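The genes described here are nuclear genes for the respiratory chain after complex I and complex II. They encode parts of complex III, cytochrome c and complex IV, parts of the ATP synthase, and factors that build complexes III and IV. Subunits encoded by mitochondrial DNA, such as Cox1 and Cox2, are not among them. The genes were chosen by symbol. A symbol had to start with Uqcr, Atp5 or Cox followed by a digit, or be Cyc1, Cycs, Surf1, Sco1, Sco2 or Bcs1l, and Cox6a2 was left out. Of 21671 genes in the table, 56 matched. Of these, 51 reached an RPKM (reads on a gene divided by its length and by the total of the library) of 1 in at least 3 of 12 libraries and are the members. The 5 others, Cox4i2, Cox6b2, Cox7b2, Cox8b and Cox8c, never had more than 3 reads. The members comprised 9 subunits of complex III, 11 of complex IV and 15 of the ATP synthase, 12 assembly factors (Bcs1l for complex III and 11 for complex IV), cytochrome c (Cycs), the supercomplex factor Cox7a2l, and Atp5s and Atp5sl, which the symbols brought in.

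RNA was sequenced from FL MycER cells, the mouse prolymphocytic line FL5.12 of BALB/c origin, which grows with IL-3. Every library, the untreated ones included, came from selected pools of cells that carried a retroviral MycER, a Myc protein fused to a hormone-binding domain and active only with 4-hydroxytamoxifen (OHT). There were 4 conditions with 3 replicates each, which the study's methods call biological replicates. Untreated cells received neither agent, OHT cells received 100 nM OHT for 72 h, IACS cells received 135 nM of the complex I inhibitor IACS-010759 for 24 h, and OHT_IACS cells were primed with OHT for 48 h and then received both for 24 h. Before the experiments with the inhibitor the cells were kept in medium with reduced glucose.

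Complex III takes electrons from ubiquinol and passes them to cytochrome c, a small soluble protein of the intermembrane space, and complex IV takes them from cytochrome c to oxygen. Complexes III and IV pump protons out of the matrix, and the ATP synthase lets protons flow back through its membrane part (F0) to drive the catalytic head (F1). Complex IV cannot be made from its subunits alone. It needs heme a, made by Cox10 and Cox15, copper, delivered by a relay of Cox17, Cox19, Sco1 and Cox11, and helpers that insert or hold single subunits, among them Surf1, Cox14, Cox16, Cox18 and Cox20. Complex I, which IACS-010759 blocks, feeds electrons into this same chain through ubiquinone.

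The promoters of the 5 complex IV assembly factors on which most of the results turn are shown first, each from 250 bases before to 30 bases after the RefSeq start in GRCm38.p6, 5′ to 3′ on the strand of the gene. Cox10 (chr11:64079443-64079722, minus strand), Cox15 (chr19:43752971-43753250, minus strand) and Surf1 (chr2:26916501-26916780, minus strand) were higher with OHT. Cox19 (chr5:139345137-139345416, minus strand) and Cox20 (chr1:178318903-178319182, plus strand) were lower with IACS. Capitals mark the letters GGGCGG (the GC box), CCGGAAG (the ETS site) or GATGGCG (the YY1 site), read on either strand, which are the searched motifs found in these windows.
Cox10: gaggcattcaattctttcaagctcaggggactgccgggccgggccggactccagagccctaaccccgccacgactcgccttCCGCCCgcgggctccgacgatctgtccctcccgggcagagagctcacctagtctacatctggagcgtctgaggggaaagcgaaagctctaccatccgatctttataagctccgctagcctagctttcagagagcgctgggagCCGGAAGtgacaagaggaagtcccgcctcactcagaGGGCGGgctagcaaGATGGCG
Cox15: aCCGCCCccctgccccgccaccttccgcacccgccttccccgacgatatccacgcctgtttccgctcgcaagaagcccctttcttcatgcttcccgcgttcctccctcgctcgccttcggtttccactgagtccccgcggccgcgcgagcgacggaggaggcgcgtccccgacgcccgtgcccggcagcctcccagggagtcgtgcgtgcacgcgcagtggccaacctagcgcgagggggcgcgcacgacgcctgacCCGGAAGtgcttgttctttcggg
Surf1: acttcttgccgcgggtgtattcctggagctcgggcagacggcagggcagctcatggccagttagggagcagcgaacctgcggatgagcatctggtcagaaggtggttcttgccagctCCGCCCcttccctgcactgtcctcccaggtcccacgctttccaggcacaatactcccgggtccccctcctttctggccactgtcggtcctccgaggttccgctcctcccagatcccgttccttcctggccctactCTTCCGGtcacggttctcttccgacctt
Cox19: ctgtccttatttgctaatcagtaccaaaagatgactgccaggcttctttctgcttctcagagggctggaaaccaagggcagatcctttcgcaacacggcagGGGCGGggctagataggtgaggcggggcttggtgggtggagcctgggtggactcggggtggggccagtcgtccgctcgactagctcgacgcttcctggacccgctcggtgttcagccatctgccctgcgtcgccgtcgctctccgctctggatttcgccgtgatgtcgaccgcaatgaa
Cox20: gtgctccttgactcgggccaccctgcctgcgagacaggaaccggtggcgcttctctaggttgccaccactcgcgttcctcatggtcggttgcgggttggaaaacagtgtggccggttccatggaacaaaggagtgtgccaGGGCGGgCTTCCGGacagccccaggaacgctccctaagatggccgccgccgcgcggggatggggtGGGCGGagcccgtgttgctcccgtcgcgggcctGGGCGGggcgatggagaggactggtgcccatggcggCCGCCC

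Of the 51 members, 42 had a promoter in the RefSeq table, and 8 motifs were searched on both strands from 250 bases before to 50 bases after the start; no motif contains another. The letters CCGGAAG were found for 18 of 42 members, beside 9.93% of the 27025 genes with a promoter. They were found for 8 of 10 assembly factors and 10 of 28 subunits. The NRF1 core, CGCATGCG, was found for 7 of 28 subunits and 0 of 10 assembly factors, beside 2.07% of all genes. GGGCGG was found for 19 members beside 38.2% of all genes, and GATGGCG for 6 beside 4.04%. The E-box CACGTG, the hexamer bound by Myc with Max, was found for 5 members (8.09% of all genes), the ERR site AAGGTCA for 4 (5.38%) and the cyclic AMP response element TGACGTCA for 2 (2.03%). The letters TGATGNAA, a core of the element bound by Atf4 with a C/EBP partner, were found for none of the 42 (4.51% of all genes). These matches are a description of the letters in these windows.

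Reads on genes ran from 4199265 to 5762339 a library, and library totals, the numbers of reads by which the RPKM had been scaled, from 10376530 to 14550158. The libraries with the lowest totals were OHT replicates 1 and 3 and IACS replicate 3. OHT replicate 2 had a total of 13956222, within the range of the untreated libraries. The 3 OHT_IACS totals were close together, from 11792608 to 11913079. Of 14 markers of progenitor B cells, 7 were at 0 in every library, Pax5 and Rag1 among them, and 3 reached an RPKM of 1 in 3 libraries (Cd79a, Cd79b and Il3ra), so that the defining markers of the labelled lineage were mostly absent. Of 10 myeloid markers 6 did. The summed myeloid RPKM was 87.3 to 95.8 in untreated, 41.5 to 41.8 in OHT, 81.2 to 96.8 in IACS and 35.1 to 39.6 in OHT_IACS libraries. The sum moved with OHT mostly through S100a8 (21.1 to 26.9 in untreated, 2.74 to 5.16 in OHT libraries) and S100a9 (25.9 to 28.6 and 3.36 to 5.10). Of the other abundant myeloid markers, Cebpe overlapped (22.5 to 25.2 and 20.9 to 23.7). Mpo was lower by less (12.1 to 13.65 and 9.41 to 11.8). The summed erythroid RPKM, mostly Klf1, was 13.8 to 14.6 in untreated, 10.3 to 11.9 in OHT, 7.81 to 8.90 in IACS and 6.85 to 7.48 in OHT_IACS libraries. Hbb-b1, at a much lower level, went the other way. Its RPKM was 0.712 to 0.982 in untreated, 1.22 to 1.71 in OHT, 1.16 to 1.82 in IACS and 1.88 to 2.40 in OHT_IACS libraries. The part of these markers in the results was not tested. The RPKM listed for Myc fell with OHT (log2 change -0.81 ± 0.05 SE, limma adjusted p = 1.74e-07) and in OHT_IACS against IACS (-0.62 ± 0.05, adjusted p = 2.76e-06). It rose with IACS in nonprimed (0.34 ± 0.05, adjusted p = 0.000991) and primed cells (0.53 ± 0.05, adjusted p = 2.40e-05). Whether this RPKM includes reads of the MycER transgene is not given in the sources used here.

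The subunits were among the members with the most RNA per length. In untreated libraries their mean RPKM had a median of 52.4 and ran from 1.24 (Cox7a1) to 85.0 (Atp5b, the catalytic F1 beta subunit). The assembly factors had a median of 15.2 and ran from 3.81 (Cox11, which carries copper to Cox1) to 32.2 (Cox17, the copper chaperone of the relay). Of 35 subunits, 32 had 0.3 or more reads per base of gene length, averaged over the libraries, and of 12 assembly factors 2 did, Cox14 and Cox17.

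The reads on the abundant subunits hardly followed the library totals. The highest total was 1.4 times the lowest, yet Atp5b had 2207, 2230 and 2296 reads in untreated, 2122, 2250 and 2165 in OHT, 2235, 2210 and 2145 in IACS and 2235, 2256 and 2216 in OHT_IACS libraries. The 12 values thus lay within a factor of 1.08 of each other and overlapped in all conditions. Over the 32 subunits at 0.3 or more reads per base, the highest library had 1.08 to 1.32 times the reads of the lowest (median 1.19), against 1.41 to 1.99 times (median 1.53) for the 12 assembly factors. Within conditions, the slope of log2 reads on log2 total, which is 1 where reads are in proportion to the total, had a median of 0.33 over those subunits (0.02 to 0.75) and of 1.15 over the assembly factors (0.92 to 1.41). All genes tested followed the same course, from a median slope of 1.38 under 0.1 reads per base to 0.59 at 0.5 to 1 and 0.18 at 1 or more. RPKM divides by the total, so an abundant subunit had a higher RPKM in a library with a low total. Whether duplicate reads were removed before the reads were counted is not given in the sources used here, and the cause of these slopes was not tested.

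**Figure D1:**
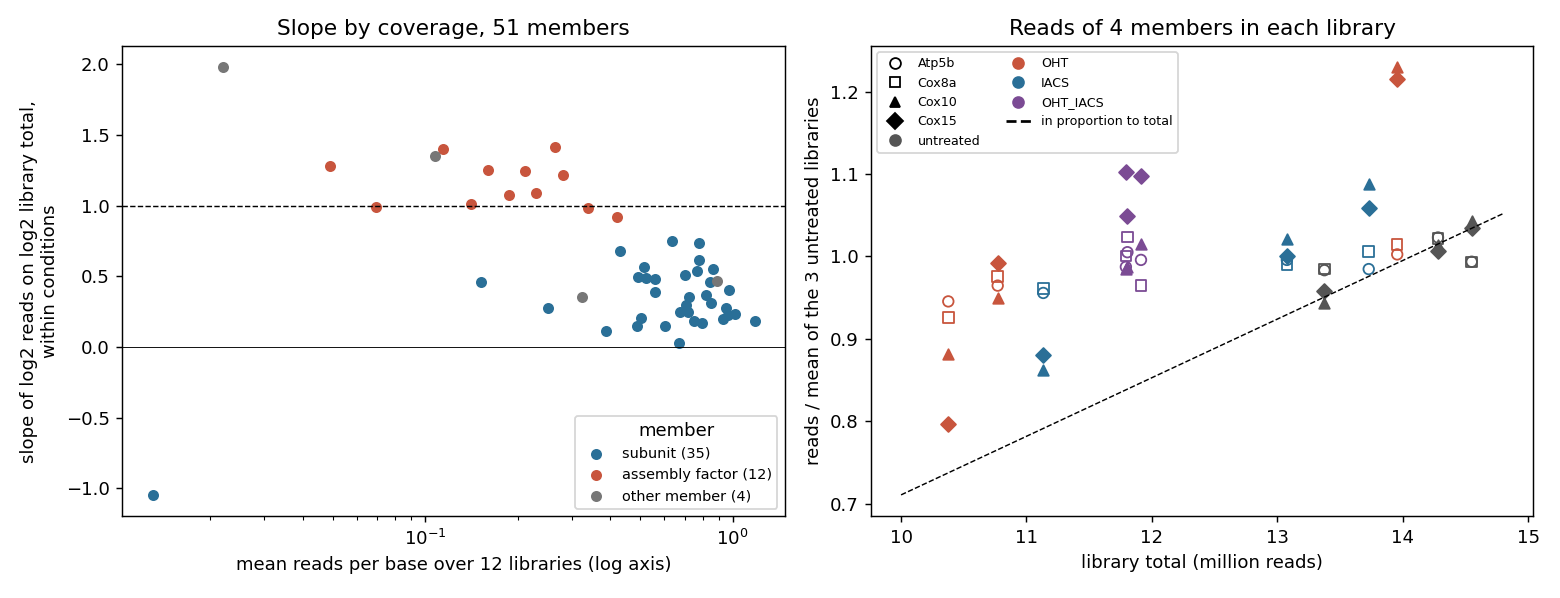
Left: slope of log2 reads on log2 library total within conditions against mean reads per base (log axis) for the 51 members, coloured by kind, with the dashed line at a slope of 1. Right: reads of Atp5b, Cox8a, Cox10 and Cox15 in each library, divided by the mean of the 3 untreated libraries, against the library total, with the dashed line for reads in proportion to the total. The assembly factors lie at 0.92 to 1.41 and the subunits at 0.3 or more reads per base at 0.02 to 0.75, and the open symbols of Atp5b and Cox8a stay nearly level.

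The first comparison asks what OHT, and with it active MycER, did to these genes. No library came from cells without MycER that received OHT, so effects of OHT itself cannot be told apart from those of MycER. With OHT, 10 of 51 members rose and 3 fell (limma on log2(RPKM + 0.1), adjusted p under 0.05), that is 19.6% and 5.88%, where 18.2% of the 9745 genes tested rose and 18.2% fell. On RPKM as deposited 17 members rose, 12 of them subunits, with 2059 of all genes tested, and by limma-voom on the recovered reads 14 rose, 8 of them subunits, with 1868 of all genes. The median log2 change was 0.16 over the members and 0.01 over all genes tested, but it differed with coverage. By reads per base, the medians over all genes were -0.06 under 0.1, 0.017 at 0.1 to 0.3 and 0.077 at 0.3 to 0.5. They were 0.142 at 0.5 to 1 and 0.215 at 1 or more. Over the 4, 11, 7, 27 and 2 members there, the medians were -0.258, 0.194, 0.122, 0.164 and 0.213. The members that rose were Atp5sl, Cox6b1, Uqcrc2, Cox10, Cox5a, Bcs1l, Cox15, Uqcrb, Surf1 and Sco1, and those that fell were Atp5s, Cox20 and Cox16. Of the 12 assembly factors 5 rose and 2 fell, and of the 35 subunits 4 rose and 0 fell.

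Both enzymes of heme a synthesis rose. Cox10, the farnesyltransferase that makes heme o, went from an RPKM of 16.4 ± 0.138 (SD, n = 3) in untreated to 20.0 ± 0.421 in OHT libraries (log2 change 0.27 ± 0.04 SE, adjusted p = 0.00012). Cox15, which turns heme o into heme a, had an RPKM of 13.2, 13.1 and 13.0 in untreated and 14.2, 16.1 and 17.0 in OHT libraries. Its 3 OHT libraries were above all untreated ones, with replicate 1 the lowest, and the log2 change was 0.24 ± 0.05 (adjusted p = 0.00452).

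Surf1, which acts early in the assembly of Cox1 and whose loss causes Leigh syndrome in people, had a mean RPKM of 20.7 ± 0.848 in untreated and 24.1 ± 0.491 in OHT libraries (log2 change 0.20 ± 0.05, adjusted p = 0.00686). Bcs1l, the ATPase that inserts the Rieske protein into complex III, rose from 10.1 ± 0.369 to 12.1 ± 0.755 (0.24 ± 0.06, adjusted p = 0.0107). Sco1, a copper-binding factor for Cox2, had an RPKM of 8.95, 8.75 and 8.54 in untreated and 9.09, 10.4 and 10.1 in OHT libraries. The groups did not overlap, but OHT replicate 1 was barely above untreated replicate 1, and the adjusted p was 0.0434 at a log2 change of 0.15 ± 0.05.

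Cox20 and Cox16, small inner-membrane proteins that accompany the maturation of Cox2, went the other way. Cox20 had an RPKM of 15.8, 15.0 and 15.3 in untreated and 13.3, 12.8 and 10.8 in OHT libraries, so that all OHT libraries were lower (log2 change -0.35 ± 0.09, adjusted p = 0.00861). Cox16 had 6.47, 5.77 and 6.04 against 5.46, 4.85 and 5.08, again without overlap (-0.27 ± 0.08, adjusted p = 0.0227). The remaining 5 complex IV assembly factors, Cox11, Cox14, Cox17, Cox18 and Cox19, had log2 changes of 0.23, -0.13, 0.12, 0.13 and -0.14 and were not called.

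The 2 genes brought in by symbol moved furthest. Atp5sl (now Dmac2), a distant relative of the ATP synthase coupling factor that takes part in complex I assembly, had an RPKM of 7.67, 7.30 and 8.19 in untreated and 9.80, 10.2 and 11.1 in OHT libraries. All OHT libraries were higher, at a log2 change of 0.40 ± 0.08 (adjusted p = 0.00179). Atp5s (coupling factor B, now Dmac2l) had 1.89, 2.38 and 1.77 against 1.46, 1.54 and 1.17. The groups did not overlap, at -0.52 ± 0.19, but the adjusted p of 0.04998 was the closest to the threshold of all, and at 0.022 reads per base the gene was thinly covered.

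Of the 35 subunits, 34 had a log2 change above 0 with OHT, beside 5069 of the 9745 genes tested, at a median of 0.17. Cox6b1, a complex IV subunit that faces cytochrome c, had an RPKM of 51.7, 46.7 and 48.0 in untreated and 64.1, 54.2 and 65.6 in OHT libraries (log2 change 0.30 ± 0.09, adjusted p = 0.0181). Uqcrc2, a core protein of complex III, had 41.6, 37.1 and 39.7 against 51.9, 43.6 and 50.2 (0.27 ± 0.08, adjusted p = 0.0135). In both the OHT libraries lay above all untreated ones and replicate 2, the one with the untreated-like total, was lowest. Cox5a and Uqcrb rose by 0.25 ± 0.08 and 0.22 ± 0.08 (adjusted p = 0.0209 and 0.0482).

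The change of the subunits moved with the library totals. Relative to the untreated mean, the median log2 level of the 35 subunits was 0.35 and 0.22 in OHT replicates 1 and 3, which had low totals, and -0.04 in OHT replicate 2. In IACS replicate 3, also of low total, it was 0.23, beside 0.04 and 0.00 in IACS replicates 1 and 2. Without OHT replicate 2, 32 subunits rose, at a median of 0.29, beside 2247 of the 9745 genes tested. Without OHT replicate 1, 0 subunits were called, at a median of 0.09, where 1514 of all genes rose and 1578 fell. With the total as a covariate the median of the subunits was -0.05, 0 subunits rose and Atp5c1, Atp5g1 and Cox6a1 fell. Over all genes 1195 rose and 1156 fell in that setting. Every untreated library had a higher total than OHT replicates 1 and 3 and the OHT_IACS libraries. The covariate thus overlaps in part with the condition and may take out part of its change. The assembly factors had medians of 0.16, 0.10 and 0.14 in the 3 OHT libraries.

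**Figure D2:**
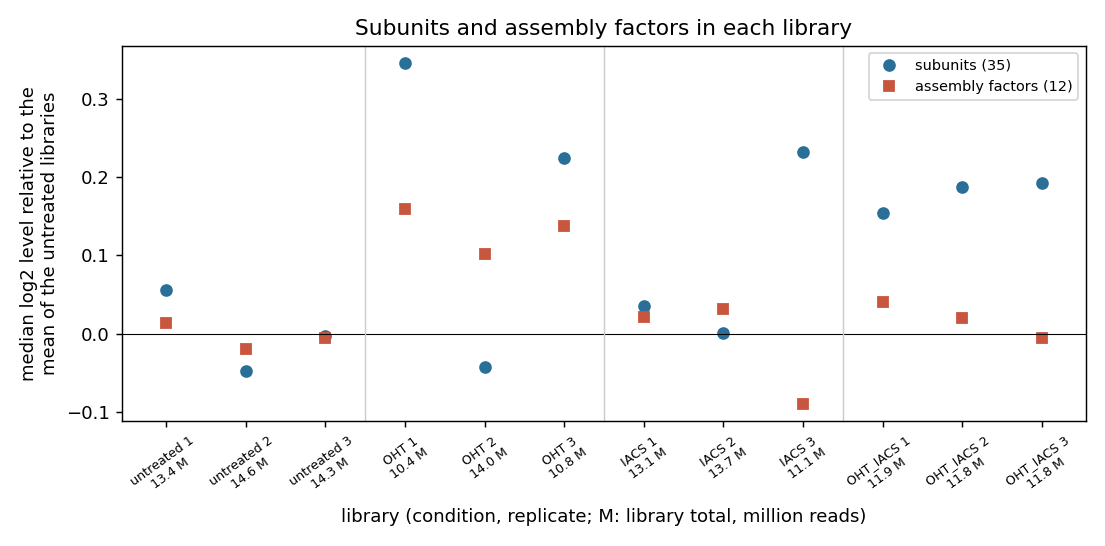
Median log2 level relative to the mean of the untreated libraries, for the 35 subunits (circles) and the 12 assembly factors (squares), in each of the 12 libraries with its total. The subunits sit at 0.35 and 0.22 in OHT replicates 1 and 3 and at -0.04 in OHT replicate 2, whereas the assembly factors sit between 0.10 and 0.16 in all 3.

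In all 25 alternative settings tried, Atp5sl, Cox10, Cox15 and Surf1 kept their rise with OHT. Bcs1l and Cox20 lost their call only with the library total as a covariate (adjusted p = 0.106 for Bcs1l and 0.0858 for Cox20). As given above, that covariate overlaps in part with the condition. None of the 4 subunits called kept its call in every setting, Uqcrb being called in 8 of 24 and Uqcrc2 in 21 of 24. Of the other members, Sco1 was called in 11 of 25, Cox16 in 19 of 25 and Atp5s in 7 of 24.

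The second comparison asks what inhibition of complex I did in cells without active MycER. With IACS, 0 of 51 members rose and 2 fell, where 8.15% of the genes tested rose and 7.74% fell. At an unadjusted p under 0.05 there were 7 members, beside 2969 of the 9745 genes tested. Limma-voom on the reads also called 0 rises and 2 falls among the members, beside 967 rises and 892 falls over all genes. Both members that fell were complex IV assembly factors. The median log2 change was 0.08 over the members and 0.00 over all genes tested. In the same classes of reads per base, the medians over all genes were 0.004, -0.015, 0.004, 0.052 and 0.115. Those over the members were -0.207, 0.082, 0.012, 0.1 and 0.105.

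Cox20 had an RPKM of 15.8, 15.0 and 15.3 in untreated and 12.3, 11.4 and 10.2 in IACS libraries. Every IACS library was below every untreated one, and the log2 change was -0.48 ± 0.09 (adjusted p = 0.00338), from 51 to 98 reads a library. Cox19, a soluble twin-cysteine protein of the intermembrane space in the copper relay, had 23.4, 24.6 and 24.4 against 22.0, 20.7 and 16.2. The groups did not overlap, replicate 3 of IACS was well below the other two, and the log2 change was -0.34 ± 0.07 (adjusted p = 0.00875). Both calls held in all 25 alternative settings, with a log2 change of -0.22 to -0.41 for Cox19 and of -0.43 to -0.53 for Cox20.

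Below the threshold with IACS were Bcs1l (0.18 ± 0.06, adjusted p = 0.0783) and Cox10 (0.11 ± 0.04, adjusted p = 0.0654). In both, all 3 IACS libraries were above all untreated libraries, at a mean RPKM of 11.6 ± 0.787 for Bcs1l and 18.0 ± 0.207 for Cox10. Cox11 and Cox16 lay lower in all 3 IACS libraries (-0.22 and -0.19) and were not called. Such separation was common over all genes. With IACS, 7 of 51 members were apart and higher, beside 1937 of the 9745 genes tested. Apart and lower were 4 members, beside 1821 of all genes. Of the 35 subunits 32 were above 0, beside 4968 of the 9745 genes tested, at a median of 0.09, and 0 were called. Without IACS replicate 3, which had a low total, the median of the subunits was 0.018.

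**Figure D3:**
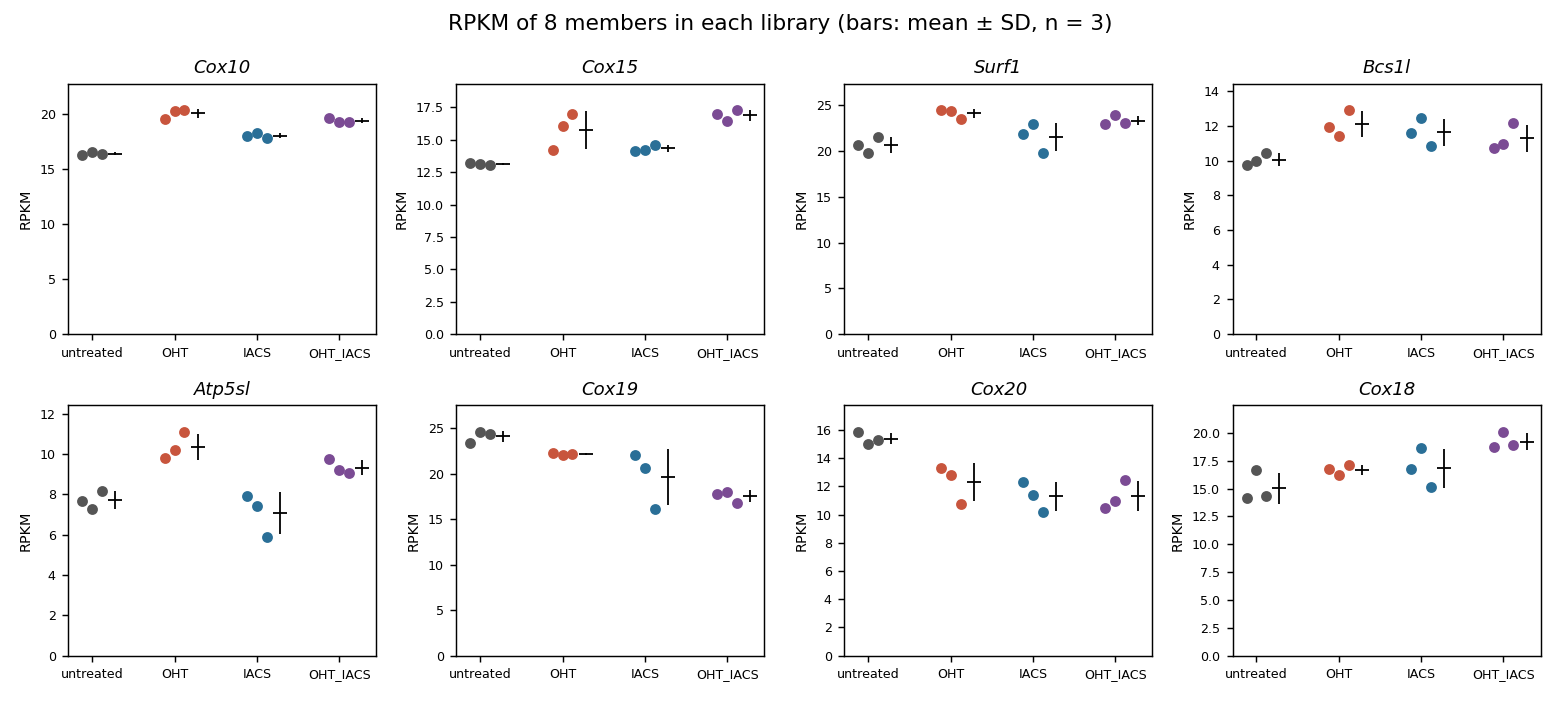
RPKM (linear axis from 0) of 8 members in each of the 12 libraries, coloured by condition, with black bars for the mean ± SD of 3 libraries. Cox10 is at 16.4 in untreated and 20.0 in OHT libraries on average, and Cox20 at 15.4 in untreated and 11.3 in IACS libraries. The mean of Cox19 is lowest in OHT_IACS libraries, at 17.5, and its lowest single library is IACS replicate 3, at 16.2.

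The third comparison sets OHT_IACS against OHT and so asks what the inhibitor did in primed cells. Of the members 1 rose and 2 fell, beside 11.9% and 11.8% of all genes tested, and all 3 were complex IV assembly factors. The median log2 change was -0.01 over the members and -0.01 over all genes tested. Cox19 had an RPKM of 22.3, 22.0 and 22.2 in OHT and 17.8, 18.0 and 16.8 in OHT_IACS libraries, with no overlap (log2 change -0.34 ± 0.07, adjusted p = 0.00628), and this call held in all 25 alternative settings. Sco1 had 9.09, 10.4 and 10.1 against 8.81, 8.80 and 8.69, all lower (-0.17 ± 0.05, adjusted p = 0.0383).

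Cox18, which helps to translocate the tail of Cox2 across the inner membrane, had an RPKM of 16.8, 16.2 and 17.1 in OHT and 18.8, 20.1 and 18.9 in OHT_IACS libraries. The OHT_IACS libraries were all higher, at a log2 change of 0.20 ± 0.07, with an adjusted p of 0.0498. Its call held in 10 of 25 alternative settings and that of Sco1 in 16 of 25. Cox20 had 10.5, 11.0 and 12.5 in OHT_IACS libraries, which overlapped with OHT, and was not called (-0.12 ± 0.09, adjusted p = 0.373).

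A group of 3 settings that take out the relation with coverage or total called more subunits in primed cells: a loess of each library on reads per base, quantile normalization, and the total as a covariate. Over all genes tested they called 2551, 2457 and 2778, against 2310 in the fit without such a step. Picked out after their values were seen, Atp5e, the F1 epsilon subunit, Cox6a1 and Uqcrq, a small subunit of complex III, were called as risen with IACS in all 3. Their adjusted p-values in the fit without such a step were 0.271, 0.589 and 0.201, at log2 changes of 0.15, 0.08 and 0.16.

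The fourth comparison sets OHT_IACS against IACS and asks what OHT, and with it active MycER, did while complex I was inhibited. Of the members 4 rose and 0 fell, beside 12.3% and 14.2% of all genes tested. By limma-voom 2 members rose and 0 fell, beside 1329 and 1458 of all genes tested. At an unadjusted p under 0.05 there were 6 members, beside 3681 of the 9745 genes tested. The 4 members that rose were Atp5sl, Cox15, Cox18 and Cox10. The median log2 change over the members was 0.08, beside 0.00 over all genes tested. It was 0.010 with the total as a covariate, 0.036 with quantile normalization and 0.040 with the loess on reads per base. Atp5sl had an RPKM of 7.93, 7.41 and 5.90 in IACS and 9.75, 9.21 and 9.04 in OHT_IACS libraries, all higher (0.41 ± 0.08, adjusted p = 0.00203). Cox15 had 14.1, 14.2 and 14.6 against 17.0, 16.4 and 17.3, also apart (0.24 ± 0.05, adjusted p = 0.00517).

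Both calls held in all 25 alternative settings, whereas Cox18 (0.20 ± 0.07, adjusted p = 0.0469) held in 12 and Cox10 (0.11 ± 0.04, adjusted p = 0.0465) in 9. Cox18 had 16.7, 18.6 and 15.2 in IACS libraries, all below the OHT_IACS values given above. With the loess on reads per base, with quantile normalization and with the total as a covariate, Uqcrc1, a core protein of complex III, and Uqcrfs1, the Rieske iron-sulfur protein, were called as risen and Atp5g1 as fallen, a choice made after their values were seen. Without such a step they had log2 changes of 0.14, 0.16 and -0.08 and were not called.

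Each condition enters 2 of the 4 comparisons, but OHT against untreated and OHT_IACS against IACS share no library, and neither do the 2 comparisons of the inhibitor. Side by side, the log2 change with OHT was 0.24 for Cox15 in cells without IACS and 0.24 in cells with it, 0.40 and 0.41 for Atp5sl, and 0.27 and 0.11 for Cox10. The log2 change with IACS was -0.34 for Cox19 in nonprimed and -0.34 in primed cells, and -0.48 and -0.12 for Cox20.

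**Figure D4:**
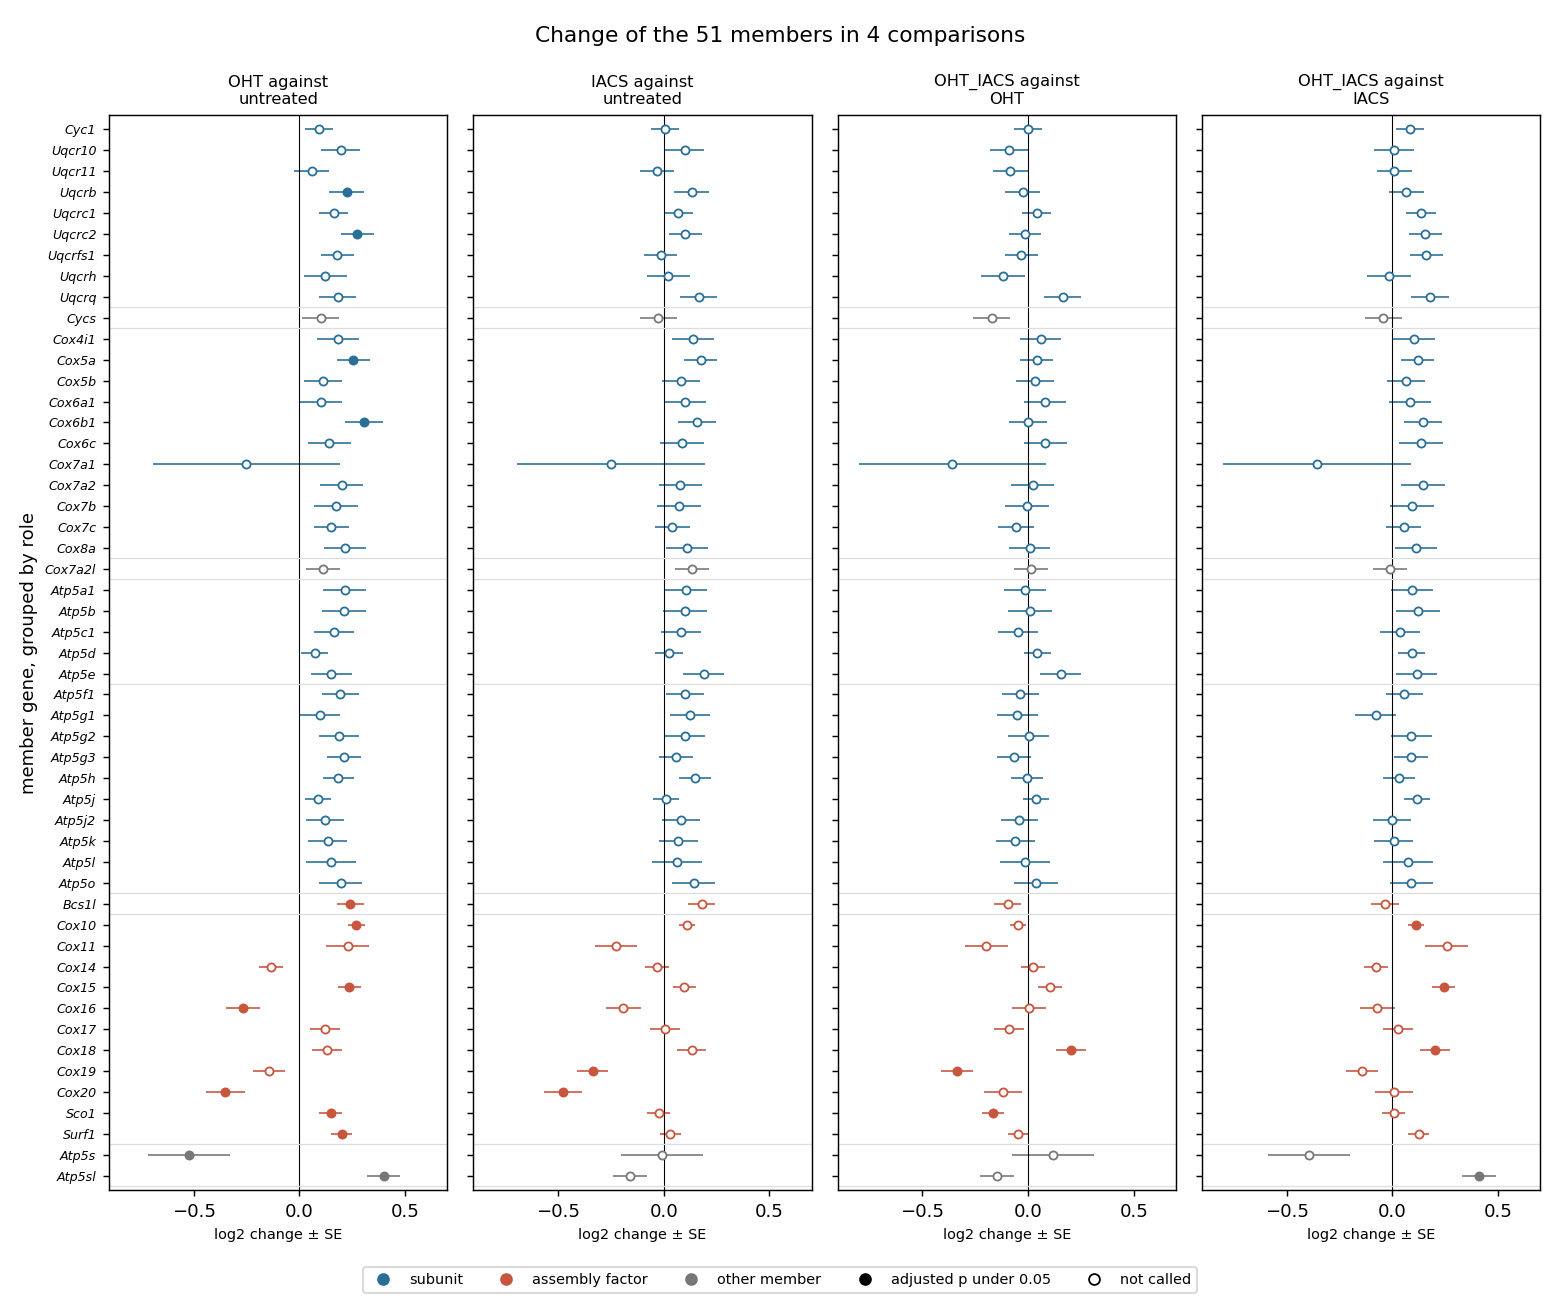
Log2 change ± SE of the 51 members in the 4 comparisons, grouped by role and coloured by kind, with filled points for an adjusted p under 0.05. In the panel for OHT 34 of the 35 subunits lie to the right of 0, 4 of them filled, and Cox7a1 lies to the left, and in the other 3 panels every filled point is an assembly factor or Atp5sl.

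Whether the response to IACS differed between primed and nonprimed cells was tested as an interaction. It was called for 0 members, beside 0.144% of all genes tested that were higher (14 genes) and 0% that were lower. Limma-voom also called 0 members, beside 36 of the 9745 genes tested. At an unadjusted p under 0.05 there were 3 members, beside 1240 of the 9745 genes tested, and the smallest adjusted p of a member was 0.247. The 3 were assembly factors, Bcs1l (-0.28 ± 0.09), Cox10 (-0.16 ± 0.05) and Cox20 (0.36 ± 0.13). In Cox10 all IACS libraries were above the untreated ones and, once scaled, all OHT_IACS libraries below the OHT ones. None of these passed the correction.

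Several subunits exist as paralogues. Atp5g1, Atp5g2 and Atp5g3 encode precursors of the same mature c subunit of the F0 ring. Atp5g1 had an RPKM of 54.9, 53.0 and 54.0 in untreated, 63.6, 50.3 and 63.1 in OHT, 56.6, 58.3 and 65.6 in IACS and 54.4, 59.9 and 55.7 in OHT_IACS libraries. Atp5g2 had 63.5, 58.3 and 64.2, then 80.6, 62.5 and 73.2, then 65.1, 66.0 and 72.5, and then 69.9, 73.8 and 71.7 in the same order. Atp5g3 had 63.6, 60.1 and 62.0, then 78.3, 64.8 and 76.0, then 63.3, 65.1 and 68.7, and then 67.1, 71.4 and 69.8. All 3 were expressed at much the same level per length in untreated cells, and OHT replicate 2 was the lowest OHT library for each. In the fit without alternative settings none was called in any of the 4 comparisons. Calls under alternative settings, such as the falls of Atp5g1 given above, are not counted here.

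For Cox4, a nuclear subunit that joins complex IV early, the common form Cox4i1 had an RPKM of 72.4, 66.9 and 68.2 in untreated, 88.8, 68.1 and 83.4 in OHT, 76.2, 73.6 and 83.0 in IACS and 82.6, 83.4 and 82.6 in OHT_IACS libraries. The lung and hypoxia form Cox4i2 had at most 2 reads in any library. For Cox6b, Cox6b1 had 55.1, 50.9 and 60.6 in IACS and 60.2, 62.2 and 60.8 in OHT_IACS libraries, besides the values given above, and the testis form Cox6b2 had at most 1 read. At these counts the second forms were at or under a floor of 3 reads, and no fold is given.

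For Cox7a, the widely expressed Cox7a2 had an RPKM of 37.0, 33.5 and 35.8 in untreated, 46.4, 35.0 and 43.5 in OHT, 35.8, 37.0 and 41.8 in IACS and 40.4, 43.5 and 42.1 in OHT_IACS libraries. Cox7a2l, which joins complex III to complex IV in supercomplexes, had 69.2, 63.1 and 65.6, then 78.3, 64.8 and 74.3, then 73.2, 71.7 and 76.5, and then 72.0, 74.9 and 71.7. The heart and muscle form Cox7a1 was the member with the lowest level, from 2 to 8 reads a library, with an RPKM of 1.63, 0.939 and 1.15 in untreated, 1.32, 0.783 and 1.01 in OHT, 0.418, 1.39 and 1.72 in IACS and 0.688, 0.463 and 1.39 in OHT_IACS libraries. Its conditions overlapped throughout, its log2 changes had an SE of 0.44, and a change of that size was not detectable at this depth. In the fit without alternative settings, none of these Cox4, Cox6b and Cox7a genes other than Cox6b1 was called in any comparison. Some were called under alternative settings. Among these, Cox4i1 rose in OHT_IACS against OHT with the loess on reads per base and with the total as a covariate. Cox7a2l fell in OHT_IACS against IACS with quantile normalization.

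Cycs, cytochrome c, which also triggers caspases once it leaves mitochondria, had an RPKM of 26.9, 25.2 and 24.5 in untreated, 31.4, 24.1 and 28.4 in OHT, 24.9, 25.2 and 26.5 in IACS and 24.4, 25.3 and 24.4 in OHT_IACS libraries. The conditions overlapped, with OHT replicates 1 and 3 the highest of the 12. Cyc1, the cytochrome c1 subunit that hands electrons to it, had 48.8, 46.9 and 50.0, then 56.4, 48.7 and 52.6, then 49.9, 50.2 and 48.9, and then 50.4, 55.4 and 51.5. Neither was called: the log2 changes with OHT were 0.10 ± 0.09 for Cycs and 0.09 ± 0.07 for Cyc1, and with IACS in primed cells -0.17 ± 0.09 and 0.00 ± 0.07. With the total as a covariate Cycs fell with IACS in primed cells.

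Further factors of complexes III, IV and V that the symbol rule does not reach were examined as a list, of which 23 of 34 symbols were tested. With OHT 1 rose and 1 fell, where 18.2% of all genes tested went each way, at a median log2 change of 0.08 over the list. The fall, in Uqcc3, a factor for the cytochrome b step of complex III assembly, was larger than that of any member, from a mean RPKM of 30.2 ± 1.63 in untreated to 20.9 ± 1.48 in OHT libraries (log2 change -0.55 ± 0.06, adjusted p = 2.62e-05). Against IACS, where 12.3% of all genes tested rose and 14.2% fell, OHT_IACS libraries had 1 rise, Taco1, the translational activator of Cox1 (0.43 ± 0.08, adjusted p = 0.00107), and 2 falls, Uqcc3 (-0.49 ± 0.06, adjusted p = 9.86e-05) and Coa5 (-0.15 ± 0.04, adjusted p = 0.0152). Usmg5, a small membrane subunit of the ATP synthase, rose with OHT (0.27 ± 0.10, adjusted p = 0.0396).

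With IACS 1 of the 23 rose and 3 fell, beside 8.15% and 7.74% of all genes tested. The largest fall was in Coa6, a copper-relay partner of the Sco proteins, from 34.1 ± 1.87 in untreated to 24.4 ± 3.26 in IACS libraries (-0.51 ± 0.11, adjusted p = 0.00839), followed by Taco1 (-0.25 ± 0.08, adjusted p = 0.0399), and by Atpaf2, an F1 assembly factor (-0.22 ± 0.06, adjusted p = 0.0335). Ttc19, which clears fragments of the Rieske protein from complex III, rose (0.37 ± 0.09, adjusted p = 0.014). In primed cells 1 rose and 2 fell with IACS, beside 11.9% and 11.8% of all genes tested: Ttc19 again rose (0.28 ± 0.09, adjusted p = 0.0393), and Higd1a (-0.28 ± 0.07, adjusted p = 0.0102) and Atpaf2 (-0.22 ± 0.06, adjusted p = 0.025) fell.

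Of the 4 complex II subunits, Sdha rose with IACS (0.16 ± 0.05, adjusted p = 0.0388), and no other call was made in the 4 comparisons. Of 37 nuclear subunits of complex I, 6 rose and 1 fell with OHT, beside 18.2% of all genes tested in each direction. With IACS 1 rose and 1 fell, beside 8.15% and 7.74% of all genes. In primed cells 2 rose and 1 fell with IACS (11.9% and 11.8%), and in OHT_IACS against IACS 1 rose and 1 fell (12.3% and 14.2%). Their median log2 changes were 0.10, 0.09, 0.04 and 0.05 in the same order. The one that fell was Ndufv3 each time, from a mean RPKM of 22.4 ± 0.903 in untreated to 16.6 ± 0.533 in OHT, 18.8 ± 0.228 in IACS and 14.5 ± 1.14 in OHT_IACS libraries. Like those of the members, the medians of these subunits were higher in OHT replicates 1 and 3 (0.23 and 0.13) than in replicate 2 (-0.06).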

How the data were processed

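RNA was depleted of ribosomal RNA with the TruSeq stranded total RNA kit and sequenced. The submitters' processing notes name TopHat2 2.0.8, SAMtools, featureCounts 1.4.5-p1, DESeq2 and the build mm9; the strand setting of the counting and whether duplicate reads were removed are not given in the sources used here. Reads of overlapping or antisense genes, and of near-identical retrocopies, may be misassigned. The authors deposited 1 table with the RPKM of each gene in 12 libraries. Beside them the authors deposited DESeq2's log2 fold changes with adjusted p-values for 3 comparisons, which were not used. Samples were grouped by their titles.

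From the steps between RPKM values, the library totals, gene lengths and reads were recovered (15451 of 15451 genes above 0 came out whole within 0.001 reads). Since RPKM are not counts, the test was limma 3.58.1 (R 4.3.3) on log2(RPKM + 0.1), with each library divided by the median of its gene-wise ratios to the geometric mean, a mean-variance trend, all 12 libraries in 1 fit and Benjamini-Hochberg adjustment over the 9745 genes that reached an RPKM of 1 in 3 or more libraries, two-sided, at 0.05. Fold changes are on that log2 scale and understate changes of low genes. Tested on simulated data for the OHT comparison, the fit called 196 of 200 genes changed by a log2 of 1 and 7 unchanged ones. The simulated reads were in proportion to the library totals. The simulation thus does not cover smaller changes, or genes whose reads do not follow the totals. Over genes under 0.1 reads per base, the chi-square per gene between replicates ran from 1.09 to 2.00 over the 12 pairs, where sampling noise gives 1. Over all genes tested it ran from 1.01, for IACS replicates 1 and 2, to 5.07. That pair thus differed by no more than sampling noise over all genes, but had 1.09 over the genes under 0.1 reads per base (chi-square test, p = 4.15e-05), so each library was counted; Cox19 and Cox20 kept their calls with IACS without either of them. A count of 3 reads was taken as the floor, which covers counting error only. Members, lists and tests were chosen with earlier results of these data known. Members named with a value per library were the 3 largest called rises and falls of each comparison, the paralogue sets and the cytochromes c. Atp5b, whose reads are given for each library, and Cox8a were chosen as examples after their values were seen. A check of whether equal replicate numbers pair the samples gave correlations from -0.17 to 0.10, so they were taken to share only a number. Alternatives comprised other pseudocounts and filters, RPKM as deposited, quantile normalization, the replicate block, no mean-variance trend, the log2 library total as a covariate, limma-voom on recovered reads, only genes under 0.3 reads per base, only the groups compared and leaving out each library; a loess of each library on reads per base was added after seeing the data. Motifs were searched in RefSeq promoters of GRCm38.p6; the figures were drawn with matplotlib 3.10.9.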

Additional observations from a re-analysis of the deposited data

How the results depend on the processing

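The counts of members called were 13 for OHT against untreated, 2 for IACS against untreated and 3 for OHT_IACS against OHT. They were 4 for OHT_IACS against IACS and 0 for the interaction. Over all genes tested 3546, 1548, 2310, 2585 and 14 were called in the same order. These counts and the medians of the log2 change were recomputed under each alternative. With the library total (log2) as a covariate, 8 members were called for OHT, beside 2351 of all genes tested. In OHT_IACS against OHT 8 members were called, beside 2778 of all genes tested. The medians were -0.045 for OHT, -0.036 for IACS, 0.010 for OHT_IACS against IACS and 0.049 for the interaction. With quantile normalization the OHT median was 0.041, and the counts were 5 for IACS, 7 for OHT_IACS against OHT and 12 against IACS. Over all genes tested 2061, 2457 and 3023 were called. With the loess on reads per base, an alternative chosen once the data had been seen, the OHT median was 0.039. The same counts were then 4, 7 and 10, beside 1960, 2551 and 2975 over all genes tested. With only genes under 0.3 reads per base, where 15 members were tested, the OHT count was 8, beside 2936 of the 7913 genes tested. On RPKM as deposited 1 member was called in OHT_IACS against OHT and 2 against IACS, beside 1973 and 2262 of all genes tested. In the latter 2 were also called without the mean-variance trend and by limma-voom, beside 2481 and 2787 of all genes. Leaving out each library in turn, the counts of members ran from 8 to 40 for OHT, 2 to 3 for IACS and 1 to 4 for OHT_IACS against OHT. They ran from 2 to 6 against IACS and 0 to 0 for the interaction. Over all genes tested the counts ran from 2651 to 4125, 950 to 1806, 1521 to 2950, 1884 to 2836 and 3 to 130. The medians ran from 0.085 to 0.261, 0.018 to 0.111, -0.105 to 0.055, 0.033 to 0.128 and -0.184 to -0.009 in the same order. The count of 40 was without OHT replicate 2. With the replicate block 12 members were called for OHT, 2 for IACS, 3 for OHT_IACS against OHT, 3 against IACS and 0 for the interaction. Over all genes tested 3593, 1486, 2256, 2532 and 7 were called in the same order. Causes of these shifts were not tested. The reads of the abundant subunits varied too little with the library totals for their RPKM changes of this size to be told apart from the totals, and Cox7a1, Atp5s and the second forms of Cox4 and Cox6b were limited by few reads. Members with a slope above 1, Cox19 and Cox20 among them, had the opposite relation to the totals.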
